A study of Rattus norvegicus with 2 samples.

Results

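Caspases are proteases that cut their targets after aspartate. Of this family, 7 genes, Casp1, Casp2, Casp4, Casp6, Casp8, Casp9 and Casp12, were followed in cultured muscle-derived stem cells from diabetic rats. They were taken by exact gene symbol from the authors' annotated table, which held all 7 among 18489 genes, each on 1 probe set. The genes were picked with their values in these arrays already known, so their differences are given as descriptions, with no test. The study concerned implantation of muscle-derived stem cells (MDSC) in rats with erectile dysfunction, and it set MDSC of early diabetes against MDSC of late diabetes. Both samples came from male obese Zucker rats homozygous for fa, a mutation of the leptin receptor that makes the animals obese and insulin resistant, so no lean or non-diabetic control was measured. Total RNA from culture wells was hybridised to 1 Affymetrix Rat Gene 1.0 ST array per group. For both samples alike the labels name medium with 20% serum and either 5.6 or 22 mM glucose. They do not say which glucose level each array had, so a glucose difference between arrays could not be told apart from disease stage. They give neither the age of the rats nor the number of animals or wells behind an array.

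Inflammatory caspases are switched on in large complexes called inflammasomes. Caspase-1 matures interleukin-1 beta and interleukin-18 and opens gasdermin D pores in the membrane, and rodent caspase-4, long called caspase-11 in the mouse, senses bacterial lipopolysaccharide inside the cell and cuts gasdermin D. Apoptotic caspases act in a cascade in which initiators (caspase-2, caspase-8 and caspase-9) are activated on adaptor platforms and then process executioners, such as caspase-6. In muscle, limited caspase activity also takes part in the differentiation of myoblasts, as described in mouse cells.

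Casp1, Casp4 and Casp12 lie side by side on rat chromosome 8, with no coding gene between them other than Casp4 itself in the RefSeq gene table of the GRCr8 assembly. The other 4 genes lie on chromosomes 4 (Casp2), 9 (Casp8), 5 (Casp9) and 2 (Casp6). Of the 7 genes, 5 had an entry in the RefSeq promoter table of the same assembly, which gives 250 bases before and 50 after a transcript start, and Casp4 and Casp8 had none. The promoters of Casp1 and Casp12 are shown because these neighbours had opposite differences between the arrays and share a run of 14 bases close to the start, marked in capitals.
Casp1, GRCr8 chr8:10872580-10872879, plus strand: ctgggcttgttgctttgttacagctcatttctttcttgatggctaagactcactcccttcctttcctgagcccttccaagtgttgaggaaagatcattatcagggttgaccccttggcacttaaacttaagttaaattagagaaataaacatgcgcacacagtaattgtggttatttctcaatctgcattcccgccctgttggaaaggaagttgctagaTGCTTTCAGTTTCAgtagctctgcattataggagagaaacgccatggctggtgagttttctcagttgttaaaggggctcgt
Casp12, GRCr8 chr8:10926938-10927237, plus strand: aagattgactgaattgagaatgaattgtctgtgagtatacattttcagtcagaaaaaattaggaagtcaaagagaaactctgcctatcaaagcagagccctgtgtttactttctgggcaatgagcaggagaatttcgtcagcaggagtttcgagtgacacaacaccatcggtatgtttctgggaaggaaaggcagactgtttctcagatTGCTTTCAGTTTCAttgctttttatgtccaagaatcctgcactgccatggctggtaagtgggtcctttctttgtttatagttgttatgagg
The shared run lay 31 to 18 bases before the start in Casp1 and 41 to 28 bases before it in Casp12, and it was the longest stretch that these windows had in common. Searched on both strands, it stood in 3 of 33365 distinct promoter windows of the table. They were those of Casp1 and Casp12 and that of LOC102557277, a non-coding gene next to Casp12 whose window overlaps that of Casp12. The run was picked because the Casp1 and Casp12 windows share it, so their place in this count was fixed in advance. Nothing is read from its rarity. The window of Casp12 is set at the annotated start of the gene, while that of Casp1 is set at a transcript start inside the annotated gene.

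The capitals hold 1 match to AANNGAAA, a short form of the motif bound by interferon regulatory factors, on the strand opposite to the gene. Searched on both strands, this motif was found once in the window of Casp1, 2 times in that of Casp12 and not in those of Casp2, Casp6 and Casp9, and 26.4% of all windows held it. The STAT-type motif TTCNNNGAA, the same on both strands, was found in Casp12 alone of the 5 windows and did not overlap the other motif there, and 8.88% of all windows held it. The windows of Casp2, Casp6 and Casp9 were rich in G and C (66%, 63% and 72%) and held 27, 16 and 24 CpG pairs. Casp1 and Casp12 stood at 43.3% and 41% with 4 and 3 CpG pairs, against a median over all windows of 51.7% and 7 pairs. The motifs were chosen after the values were seen, and a match describes letters, not binding.

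As measured, the inflammatory caspases did not share one direction. Casp4 and Casp12 were both lower in late diabetes by about the same factor, while Casp1 was higher. Casp4 had a normalized intensity of 633 in early diabetes and 142 in late diabetes, or 9.31 and 7.15 on the log2 scale. Casp4 was 4.46-fold lower in late diabetes. Casp12, a rodent caspase placed at the endoplasmic reticulum and associated in mice with stress of that compartment, had an intensity of 846 in early and 220 in late diabetes (log2 9.72 and 7.78). Casp12 was 3.84-fold lower. The differences of Casp4 and Casp12, -2.16 and -1.94 on the log2 scale, were 0.22 apart. In 409 genes that 2 bright probe sets cover, the SD between the differences of probe sets of the same gene was 0.22. It is the spread of a single probe set's difference within a gene, so it is not the scale for a gap between 2 genes. It reflects probe error and not variation between cultures.

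Casp1 gave little signal in early diabetes. Its intensity was 53.3 there and 146 in late diabetes (log2 5.74 and 7.19). The early value lay below a background level of log2 6.81, under which 95% of the values of 1199 olfactory receptor genes fell. Most of these receptors were assumed to be silent in muscle cells. Against that level Casp1 was at least 1.30-fold higher in late diabetes, a bound that makes no allowance for noise in the late value. The measured difference was 1.45 on the log2 scale, which rests on an early signal that cannot be told from background. Casp1, Casp4 and Casp12 are related in sequence, and signal shared between their probe sets was not tested. In a bulk culture, fewer cells of a type and less RNA per cell cannot be told apart.

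**Figure D1:**
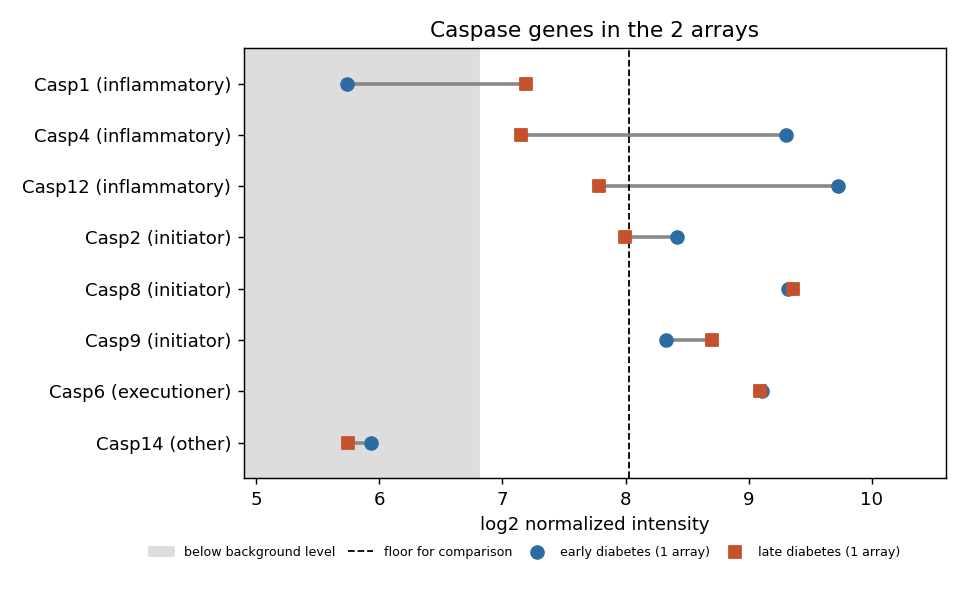
Log2 normalized intensity of the 7 caspase genes, and of Casp14 (marked other), in the early diabetes array (circles) and the late diabetes array (squares). There is 1 array per group, so no error bars are drawn. The grey area lies below the background level (6.81) and the dashed line is the brightness floor (8.03). The long lines of Casp4 and Casp12 run from the right of the floor in early diabetes to its left in late diabetes, while that of Casp1 starts in the grey area.

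The initiator caspases were present in both arrays and stayed within 1.5-fold. Casp8, the initiator at death receptors, had intensities of 639 and 659, and its difference of 0.04 on the log2 scale turned to -0.04 with quantile normalization and to -0.02 when the lowess trend was removed. Casp9, the initiator activated on the Apaf1 apoptosome, stood at 321 in early and 416 in late diabetes and was 1.30-fold higher. Casp2, which is activated on a platform of Pidd and Cradd, stood at 343 and 255 and was 1.34-fold lower. The differences of Casp9 (0.37) and Casp2 (-0.42) were 1.69 and 1.91 times the SD between probe sets. Casp6, an executioner that cuts nuclear lamin A, had intensities of 552 and 544. Its difference of -0.02 was positive (0.02) with median centring.

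A brightness floor of log2 8.03, the median over all genes and both arrays, had to be reached in at least 1 array for a gene to be compared. This kept 9738 genes and 6 of the 7 caspases, Casp1 being the exception. Casp2, Casp4 and Casp12 passed through their early values alone, since their late values lay under the floor. Of the 6, 2 were at least 2-fold lower in late diabetes and 0 at least 2-fold higher, where 3.11% and 5.84% of all compared genes were. At 1.5-fold the counts were the same, against 6.48% lower and 12.1% higher. The median difference of the 6 was -0.22, and that of all compared genes 0.06. With all 7 caspases and no floor the median was -0.02, that of all 18489 genes was -0.04, and 2 caspases were at least 2-fold lower and 1, Casp1, at least 2-fold higher as measured. Over all genes those shares were 1.86% and 3.59%. Because the caspases were picked from this same contrast, nothing further is read from these counts.

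**Figure D2:**
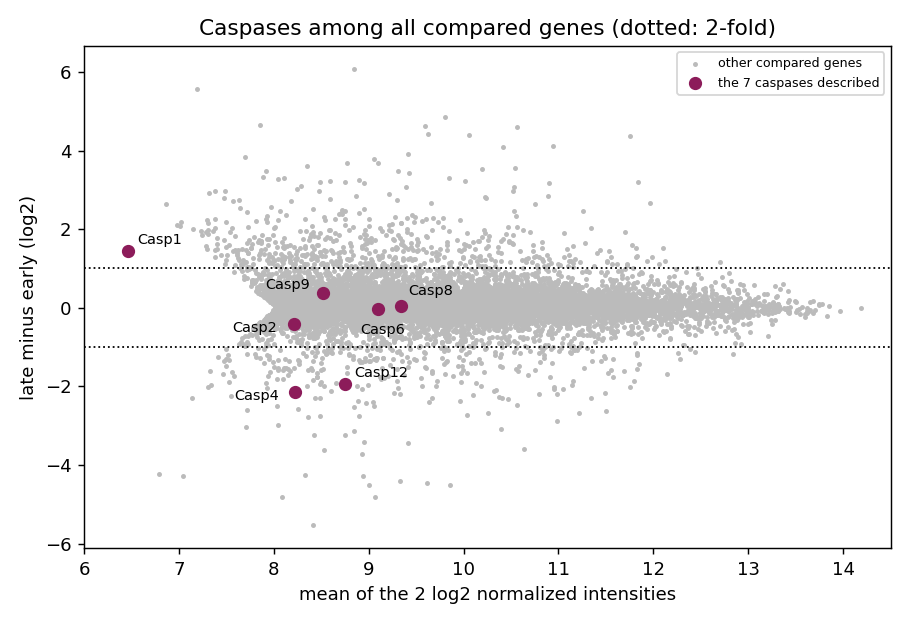
Late minus early difference (log2, vertical) against the mean of the 2 log2 intensities (horizontal) for the 9738 compared genes (grey) and the 7 caspases (circles). Dotted lines mark 2-fold. Casp4 (-2.16) and Casp12 (-1.94) lie below the lower line, Casp1 (1.45), which did not reach the brightness floor, above the upper line, and the other caspases between the lines.

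Of caspases outside these 7, Casp14, a caspase of the skin, lay below the background level in both arrays. Cflar, which encodes the catalytically inactive relative c-FLIP that holds caspase-8 in check, was 1.61-fold higher (log2 10.10 to 10.79). Casp8ap2, a partner of caspase-8, was 1.37-fold higher (9.01 to 9.47).

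The genes next to Casp1, Casp4 and Casp12 on chromosome 8 did not share one difference. On the side of Casp12, Pdgfd, a platelet-derived growth factor gene, was 2.86-fold lower in late diabetes (log2 9.53 to 8.01). Ddi1 beyond it lay below background in both arrays, and the dynein gene Dync2h1 (8.05 and 8.10) and Dcun1d5 (10.24 and 10.04) were within 1.5-fold. On the side of Casp1, the glutamate receptor gene Gria4 was below background in both arrays, and Kbtbd3 (8.24 and 7.92) and Aasdhppt (8.97 and 9.18) were within 1.5-fold. Gucy1a2, a guanylate cyclase subunit gene, was higher in late diabetes, from 5.92, below background, to 8.03. The order of genes is that of GRCr8, and 1 coding gene with no named probe set was passed over on the side of Casp1.

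**Figure D3:**
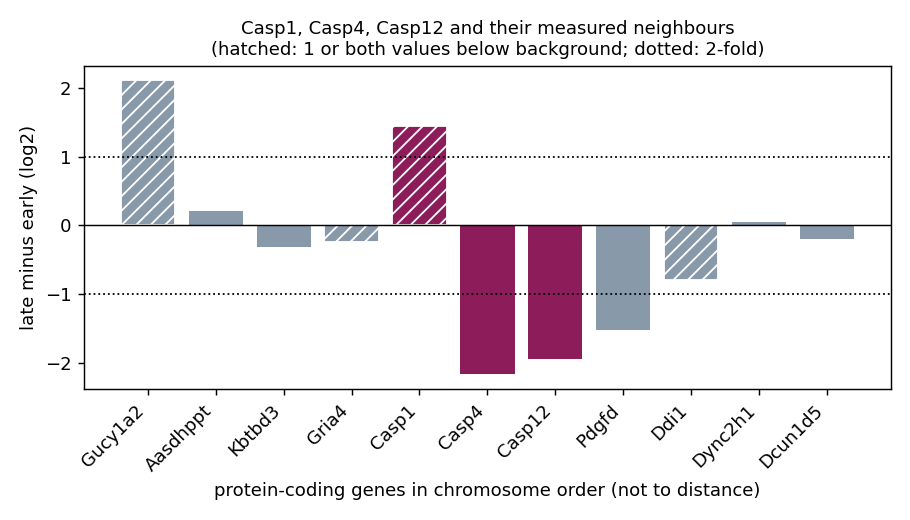
Late minus early difference (log2) of Casp1, Casp4 and Casp12 and of the 4 nearest measured coding genes on each side, in chromosome order and not to distance. Hatched bars have 1 or both values below background, and dotted lines mark 2-fold. Casp4, Casp12 and Pdgfd form a run of 3 neighbours below the lower line, with Casp1 above the upper line beside them.

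Genes that act with the inflammatory caspases were mostly dim or close between the arrays, with Nlrp3 as the exception among the sensors. Of 14 measured inflammasome genes, 6 were compared, of which 1 was higher by at least 2-fold and 0 were lower by as much. Their median was 0.12. Of all compared genes, 5.84% were higher and 3.11% lower by as much. Nlrp3, the sensor that recruits caspase-1 through an adaptor, was 3.39-fold higher in late diabetes (log2 7.43 to 9.19, with only the late value above the floor). Pycard, that adaptor, stood at 8.22 and 8.19. Panx1, a channel that releases ATP, was 1.81-fold lower (8.60 to 7.74). Among the cytokines that caspase-1 matures, Il1b lay near the background level (6.91 and 6.65) and Il18 below it in both arrays (4.92 and 6.08). Gsdmd, the pore protein cut by both caspase-1 and caspase-4, stood at 10.07 and 9.93. Of the 8 measured genes of cytokines, gasdermins and the decoy receptor Il1r2, 3 were compared, and 2 of these, the interleukin-1 family genes Il1a (at least 33.6-fold) and Il33 (21.4-fold), were higher in late diabetes. Neither needs caspase-1 in the way that interleukin-1 beta does.

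Regulators of caspase genes lay within 2-fold, as did 8866 of all 9738 compared genes. Of 15 measured genes of interferon, NF-kB and p53 signalling, 13 were compared and 0 were 2-fold apart in either direction, with a median of 0.04. At the edges stood Irf1, an interferon-induced transcription factor that was 1.96-fold higher (log2 8.51 to 9.49), and Stat2, a subunit of the complex that binds the interferon-stimulated response element, which was 1.99-fold lower (10.02 to 9.03). Irf1 passed 2-fold with median centring, and 1 gene of the list passed it downward with quantile normalization or with the lowess trend removed. Irf9, another subunit of that complex, stood at 8.74 and 8.49. In the list of endoplasmic reticulum stress genes and calpains, drawn up around Casp12, all 14 measured genes were compared and the median was -0.10. The chaperone gene Hspa5 (13.23 and 13.32) and the stress factor gene Ddit3 (9.32 and 9.05) were within 1.5-fold. Trib3, a target of that stress response, was 2.04-fold lower (8.86 to 7.84) and under 2-fold with median centring or a pseudocount of 16, and the stress sensor gene Ern1 was 1.80-fold higher (9.26 to 10.11).

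In the list of death receptor and adaptor genes, 2 of 12 compared were at least 2-fold higher in late diabetes and 0 at least 2-fold lower. The median of the 12 was 0.22. The shares of all compared genes were 5.84% higher and 3.11% lower by as much. Ripk2, a kinase with a caspase recruitment domain that serves the NOD receptors, was 4.66-fold higher (log2 8.85 to 11.07). The death receptor gene Tnfrsf21 was 2.58-fold higher (7.39 to 8.75, with only the late value above the floor). The receptor genes Fas (10.21 and 9.88) and Tnfrsf1a (11.38 and 11.45) and the adaptor genes Fadd (8.63 and 8.86) and Cradd (9.28 and 9.12) were within 1.5-fold. Of 14 compared mitochondrial and Bcl2 family genes, 1 was 2-fold or more higher and 1 was 2-fold or more lower, with a median of -0.02. Bcl2, which holds the mitochondrial route to caspase-9 closed, was 4.11-fold lower (10.33 to 8.29). Bcl2l11, its antagonist Bim, was 2.27-fold higher (7.69 to 8.87, with only the late value above the floor). Bid, which caspase-8 cuts, was 1.71-fold higher, and Pmaip1, the antagonist Noxa, was 1.86-fold lower. Apaf1, the platform of caspase-9, stood at 9.76 and 9.90, and Cycs, which encodes cytochrome c, at 12.30 and 12.42.

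Among 5 compared genes of caspase and serine protease inhibitors, 1 was at least 2-fold higher in late diabetes and 0 at least 2-fold lower. Of all compared genes, 5.84% were higher and 3.11% lower by as much. The 1 higher inhibitor gene was Serpinb1a, an inhibitor of neutrophil proteases (3.64-fold, log2 8.52 to 10.38). Serpinb9, an inhibitor of granzyme B, was 1.88-fold higher (11.42 to 12.33). Xiap, which blocks caspase-9, stood at 8.41 and 8.88, and Birc2 and Birc3 lay under the floor in both arrays. The median was 0.47 over the 5. For all 8 measured genes of the list it was 0.13, but these included Arc, a cytoskeleton gene that is not an inhibitor. Arc lay under the floor in both arrays (7.32 and 7.11), so it was not among the 5. None of the 15 compared substrates of executioner caspases was 2-fold apart, and 8866 of all 9738 compared genes also lay within 2-fold. The median of the 15 was -0.06. Lmna, cut by caspase-6, stood at 11.59 and 11.34, and Parp1, a DNA repair enzyme cut in apoptosis, at 9.49 and 10.05. The farthest apart of the 15 was Lmnb1, another lamin gene, 1.81-fold higher (8.60 to 9.46). These values are of mRNA, and cleavage of proteins was not measured.

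**Figure D4:**
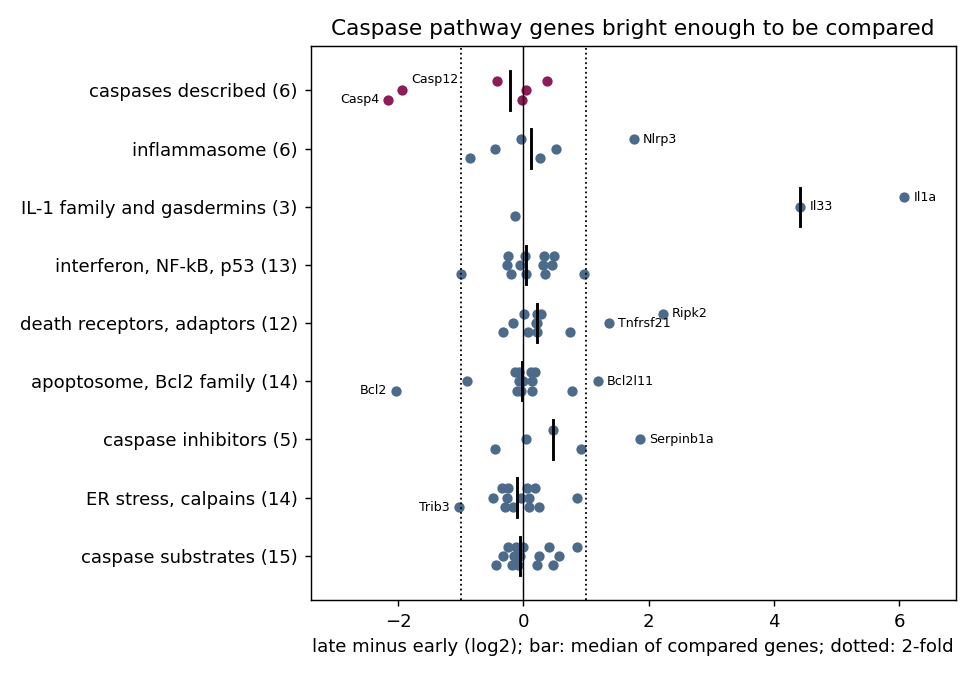
Late minus early difference (log2) of the compared genes in 8 pathway lists and of the 6 compared caspases, with the number of genes in brackets. Each point is 1 gene, black bars are medians and dotted lines mark 2-fold. Genes at least 2-fold apart are named. Medians lie between -0.22 (caspases) and 0.47 (inhibitors) except in the list of 3 interleukin-1 family and gasdermin genes.

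Markers of other cells and of growth were measured in the same arrays, and their part in the caspase differences was not tested. Of 19 measured white blood cell markers, 12 lay below background in both arrays, among them Ptprc at log2 5.84 in each. Their summed intensity was 7624 in early and 8364 in late diabetes, most of it from Cd48 (12.36 and 12.49), and of the 4 compared, Cd68 was at least 2.49-fold higher in late diabetes, Cd14 1.69-fold higher and Cd74 1.93-fold lower. Cd74 is the marker that passed 2-fold downward with quantile normalization. Of 10 fibroblast markers, 6 were compared, 1 of which, Col3a1, was at least 2-fold lower, and the summed intensity of the list was 35524 and 24285. All 10 cell cycle markers had the higher value in late diabetes, 8 by at least 2-fold, and their sums were 8798 and 20467. Of all 9738 compared genes, 5578 had the higher value in late diabetes. At least 2-fold higher were 5.84% of them, and 3.11% were at least 2-fold lower. For 8 measured endothelial markers the sums were 1390 and 1428, and for 8 adipocyte markers 1808 and 1560. A muscle stem cell identity of these muscle-derived cells rests on few bright genes here. Of 14 measured muscle stem cell and myoblast markers, 5 were compared. The defining genes Pax7 (7.35 and 7.38), Myf5 (7.10 and 6.91) and Myod1 (6.85 and 6.65) lay under the floor in both arrays. The late value of Myod1 was also below the background level. Ncam1 stood at 11.98 and 12.05, and Itga7 was 2.89-fold lower in late diabetes (10.37 to 8.84). Des was 1.58-fold higher (7.61 to 8.28) and the surface proteoglycan gene Sdc4 1.84-fold higher (11.43 to 12.32). The summed intensity of the 14 was 9967 and 11655. Without Sdc4, an omission chosen after seeing the data, it was 7199 and 6553.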

How the data were processed

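The deposited values are linear intensities, 1 per probe set and array, normalized by the authors. Background correction, summary method, software and genome build were not given in the sources used here. Both deposited tables gave the same values for each of 29214 probe sets. Log2 was taken with no pseudocount, and probe sets naming 1 gene (20164) were averaged by gene. With 1 array per group there was no replicate spread, so no test was made and no p-value, SE or SD over samples is given. The number of arrays limits the precision. The caspases and the gene lists were chosen with earlier results of these data known. The text names numbered caspases, the 2 highest and 2 lowest compared genes of each pathway list when at least 1.5-fold apart, a fixed set of pathway genes, and for caspases at least 2-fold apart the 3 compared genes nearest in their pair of log2 values; not every gene so allowed is printed, and some items are not reported here. Chromosomal neighbours were added after the values were seen. Genes whose symbol was not found in the annotated table, such as Birc5, were not analysed here. Alternatives were median centring, quantile normalization, a pseudocount of 16, removal of a lowess trend (span 0.3), the brightest probe set, 1.5-fold and 3-fold thresholds, no brightness floor, a floor at the 75th percentile or at the background level, and means in place of medians. The calculations were tested on simulated data. There the changed genes were drawn from well above the brightness floor, so the recovery of changes in dim genes such as Casp1 was not covered. Python 3.11.15, numpy 2.4.6, pandas 2.3.3, statsmodels 0.14.6 and matplotlib 3.10.9 were used.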

Additional observations from a re-analysis of the deposited data

How the results depend on the processing

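The directions of Casp1, Casp4, Casp12, Casp2 and Casp9 were the same under quantile normalization, median centring and removal of the lowess trend. Casp8 (-0.04 to 0.08) and Casp6 (-0.11 to 0.02) crossed 0. A pseudocount cannot reverse a direction, and with 1 probe set per caspase the brightest probe set gives the same value. Casp4 ranged from -2.17 to -2.04, Casp12 from -1.98 to -1.87 and Casp1 from 1.22 to 1.59 on the log2 scale, the lowest Casp1 value being the 1.22 with a pseudocount of 16, which draws dim values together. The count of 2 caspases at least 2-fold lower was unchanged under every alternative that kept any caspase, and the 75th percentile floor kept none. Differences of -2.16 (Casp4) and -1.94 (Casp12) lie too far beyond 2-fold for small rescaling or a lower threshold or floor to change it. Nothing is read from that stability. With no floor, or with the background level as the floor, 1 caspase, Casp1, counted as 2-fold higher by its measured values. Its bound against the background level was only 1.30-fold, with no allowance for noise. The mean difference of the 6 compared caspases was -0.69, below their median of -0.22, because Casp4 and Casp12 weigh more in a mean. Over all compared genes the 569 higher and 303 lower became 1177 and 631 at 1.5-fold, 237 and 129 at 3-fold, and 280 and 177 with the 75th percentile floor. Of 429 values of the other lists, 46 moved by more than the probe SD or by over 1.5 times in a count, and none changed sign from a 2-fold difference. No paired analysis was possible because each group has 1 array. Signal over background limits Casp1, whose early value lay below the background level.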

Other observations

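The compared genes with the pair of log2 values nearest to that of Casp12 over the 2 arrays were RGD1310819 (9.61 and 7.70, a distance of 0.14), the interferon-induced gene Ifit2 (9.88 and 7.88, distance 0.18) and Cntf, a ciliary neurotrophic factor gene (9.60 and 7.93, distance 0.19). Nearest to Casp4 were the cell adhesion gene Lsamp (9.35 and 7.35, distance 0.21), the chemerin receptor gene Cmklr1 (9.55 and 6.96, distance 0.31) and Mgll, a monoglyceride lipase gene (distance 0.31). The genes nearest to Casp1 were farther off: Gucy1a2 (distance 0.86), Pde3b (0.89) and LOC100912616 (0.94). Casp1 itself did not reach the brightness floor that these compared genes passed. The distance is Euclidean over 2 values only. Levels on different probe sets are not on the same scale, so the likeness is a description of these arrays.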
